A study of Mus musculus with 8 samples.

Results

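Kallikreins, transmembrane serine proteases and related proteases of the epithelial surface were compared in esophageal epithelial cells of the mouse that had been sorted by their content of a dye for autophagic vesicles. The genes were taken by name from the table of gene counts: all symbols that begin with Klk, Tmprss or Prss and a digit, without the pseudogenes marked -ps, plus St14, Asprv1, Casp14, Capn1, Capn2 and Furin. These were 89 of the 55276 symbols, with 26 kallikreins, 17 Tmprss genes, 40 Prss genes and the 6 others. One of the 89, Prss23os, is annotated as an antisense RNA of Prss23 and encodes no protease. Of the 89 genes 65 had at least 1 count in the 8 libraries, and 35 had enough counts to be tested.

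The animals were C57BL6 mice 14 to 15 weeks old, with no genetic change or treatment given in the labels, and all 8 libraries share this background. Epithelial cells that excluded DAPI and carried integrin beta-1 were taken from esophageal tissue peeled off the muscle and divided by the fluorescence of Cyto-ID, the vesicle dye, into a dim fraction (Cyto-ID Low) and a bright fraction (Cyto-ID High), and RNA of each was sequenced in bulk. Animals Female1, Female2, Male1 and Male2 each gave 1 library of each fraction, so that each fraction had 4 libraries. Values per library are given in that order of animals throughout. In bulk RNA, fewer cells of a type and less RNA per cell cannot be told apart.

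As background, the surface of a stratified squamous epithelium is shed by proteolysis of the junctions between its outermost cells. Secreted kallikreins, which are serine proteases made as inactive precursors and encoded side by side in 1 gene cluster, cleave desmosomal proteins in the skin and are held in check by the inhibitor encoded by Spink5. Membrane-anchored serine proteases act earlier in such cascades: matriptase (St14) and prostasin (Prss8) activate each other or further zymogens, cleave the epithelial sodium channel and are needed for the epidermal barrier. Inside the cell, the aspartic protease Asprv1 and caspase-14 take part in the processing of filaggrin, calpains are calcium-dependent proteases of the cytosol, and furin cleaves precursors on their way through the Golgi.

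The libraries held 26285150 to 29301054 counts. Levels are given as CPM, counts relative to a library size that was corrected by edgeR's TMM factors, which were 1.16 to 1.30 in Low and 0.679 to 0.944 in High. The protocol in the labels calls the cells of both fractions basal, but the fractions differed in markers of epithelial layer. All 12 markers of basal keratinocytes were lower in High (summed level 22660 to 27040 CPM in Low, 2912 to 4636 in High), and all 11 tested markers of the layers above were higher (10470 to 27890 and 143000 to 246400 CPM). The High libraries thus go against that label, and the part of this difference in layer in the values of the protease genes was not tested.

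Most of the tested protease genes were higher in the Cyto-ID High fraction. Changes, rises and falls are log2 fold changes, High against Low, unless a fold is given. Of the 35, 22 were higher and 3 were lower in edgeR's quasi-likelihood test, and 10 did not pass. The threshold was a p-value under 0.05 after Benjamini-Hochberg adjustment over all 17344 genes tested, and every adjusted p given here comes from this test unless another fit is named. Among all tested genes 23.4% were called higher and 25.3% lower, against 62.9% and 8.57% of the tested protease genes. The median log2 fold change of the 35 was 1.76, where it was −0.09 over all tested genes. A gene with enough counts in only 1 fraction can pass the filter on low counts through that fraction, so the 35 are not a sample of all 89. In the 3 families and the remaining genes, 7 of 10 kallikreins rose and the other 3 did not pass, 8 of 10 Tmprss genes rose and 1 fell, 3 of 9 Prss genes rose and 1 fell, and 4 of the 6 others rose and 1 fell. For 22 genes all 4 High libraries lay above all 4 Low libraries, and for 2 genes all lay below, where 23.6% and 24.9% of all tested genes were separated in the same way. With uncorrected library sizes (total counts) the median of all genes moved by −0.56 on the log2 scale, 20.5% in place of 48.0% of the called genes were higher, and the protease genes split into 20 higher and 4 lower.

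**Figure D1:**
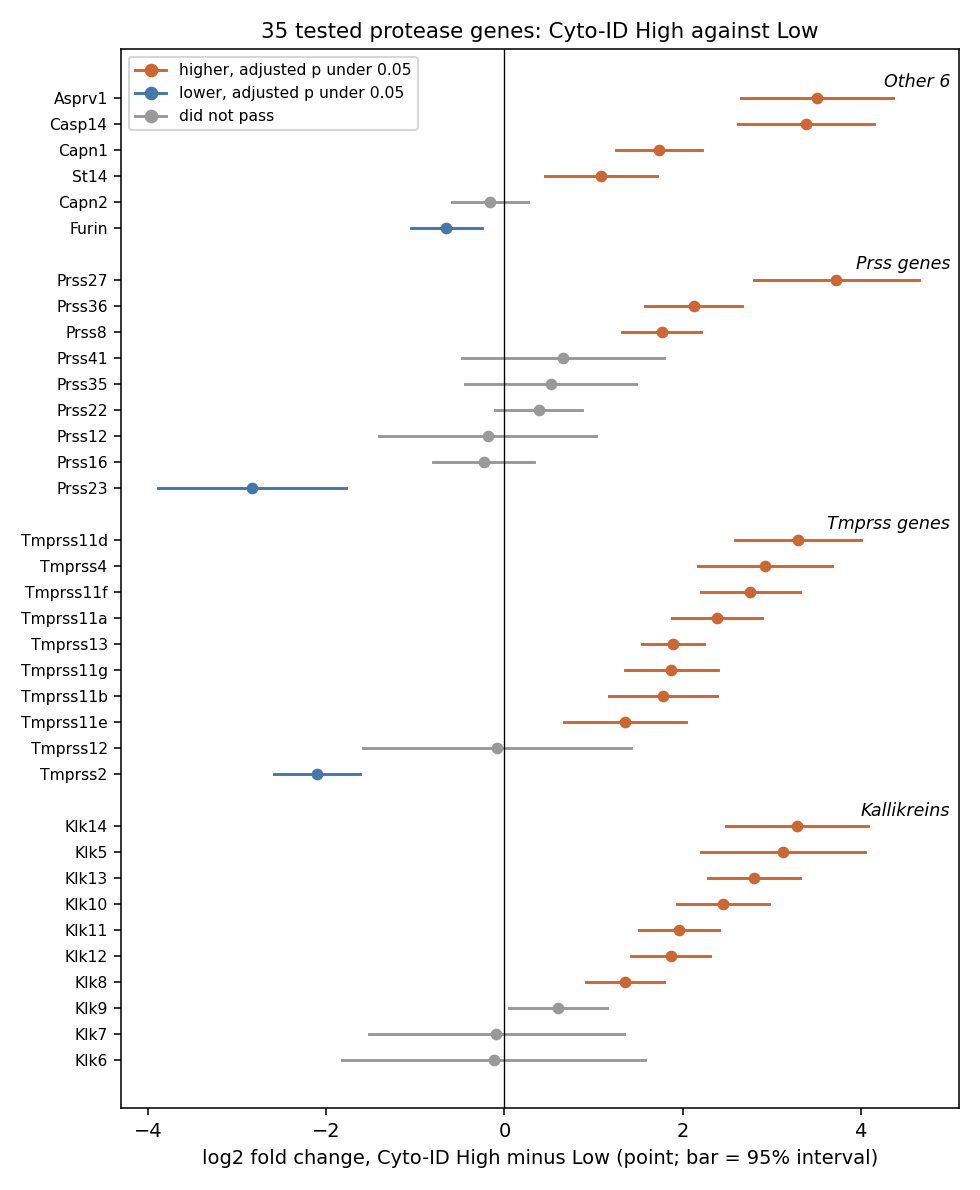
Log2 fold change of the 35 tested protease genes (Cyto-ID High minus Low, with sex as a covariate), with 95% intervals as bars, grouped by family and coloured by the call at an adjusted p under 0.05. The 22 called higher lie between 1.08 for St14 and 3.72 for Prss27, and the 3 called lower are Furin, Tmprss2 and Prss23.

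As shares of all counts, which is the scale of uncorrected library sizes, the 26 kallikreins took 0.0568% ± 0.0114 in Low and 0.172% ± 0.0256 in High (SD, n = 4 each). The 17 Tmprss genes took 0.0355% ± 0.00545 and 0.0966% ± 0.0121, and all 89 genes 0.200% ± 0.0290 and 0.567% ± 0.0548. Every High library lay above every Low library in these 3 shares.

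The kallikreins that rose were Klk5, Klk8 and Klk10 to Klk14. In the GRCm38 annotation of GENCODE release M21 they lie on the forward strand of chromosome 7 in the order Klk14, Klk13, Klk12, Klk11, Klk10, Klk9, Klk8, Klk7, Klk6 and Klk5, from 43690418 (start of Klk14) to 43851181 (end of Klk5). Klk10 was the kallikrein with the most counts per length. Its level was 155, 164, 107 and 180.3 CPM in the Low libraries and 825, 941, 582 and 969 CPM in the High libraries. The log2 fold change was 2.45 (SE 0.23, adjusted p = 3.01e-05), or 5.47-fold, and it was nearly the same in each animal, with log2 differences of 2.42, 2.52, 2.44 and 2.43. Klk14, a trypsin-like kallikrein with a role in shedding of the skin surface, had the largest fitted change among the kallikreins, though within error of that of Klk5. It stood at 32.03, 50.9, 14.9 and 49.7 CPM in Low and 385, 399, 270.2 and 376 CPM in High, a rise of 3.28 (SE 0.35, adjusted p = 6.28e-05) on the log2 scale. The 4 High libraries were close together (highest over lowest 1.48-fold), whereas the Low libraries spread 3.404-fold, with Male1 lowest.

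Klk13, next to Klk14 in the cluster, had 45.3, 51.7, 24.5 and 46.9 CPM in Low and 281, 349, 229 and 303 CPM in High, a rise of 2.80 (SE 0.23, adjusted p = 1.83e-05). Again Male1 was the lowest of the Low libraries, and the fractions did not overlap. Klk5, the trypsin-like kallikrein that can activate other kallikreins in the skin, rose by 3.13 (SE 0.41, adjusted p = 1.93e-04) from a far lower level. The test rested on 33, 49, 9 and 53 counts in Low and 294, 193, 236 and 163 counts in High, so the Low level of Male1 has the widest counting error. Klk11 had 104, 66.3, 94.5 and 83.2 CPM in Low and 281, 318, 311 and 453 CPM in High, a rise of 1.96 (SE 0.20, adjusted p = 4.73e-05).

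Klk12 and Klk8 had lower fitted changes, though that of Klk12 was within error of that of Klk11 (1.96, SE 0.20). Klk12 had 21.3, 16.6, 10.3 and 14.8 CPM in Low and 77.5, 47.6, 52.2 and 49.1 CPM in High, a change of 1.86 (SE 0.20, adjusted p = 5.75e-05), and its High library of Female1 stood apart from the other 3. Klk8, a kallikrein also known from the brain as neuropsin, had 65.2, 53.4, 34.9 and 48.5 CPM in Low and 172, 109, 130.0 and 100.5 CPM in High. Its change of 1.35 (SE 0.20, adjusted p = 3.49e-04) was the smallest fitted value among the 7 called kallikreins. Exons of Klk14 and Klk8 overlap exons of 2310002F09Rik on the other strand, and whether the counting used the strand is not given in the sources used here, so reads of these genes are uncertain to that extent.

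**Figure D2:**
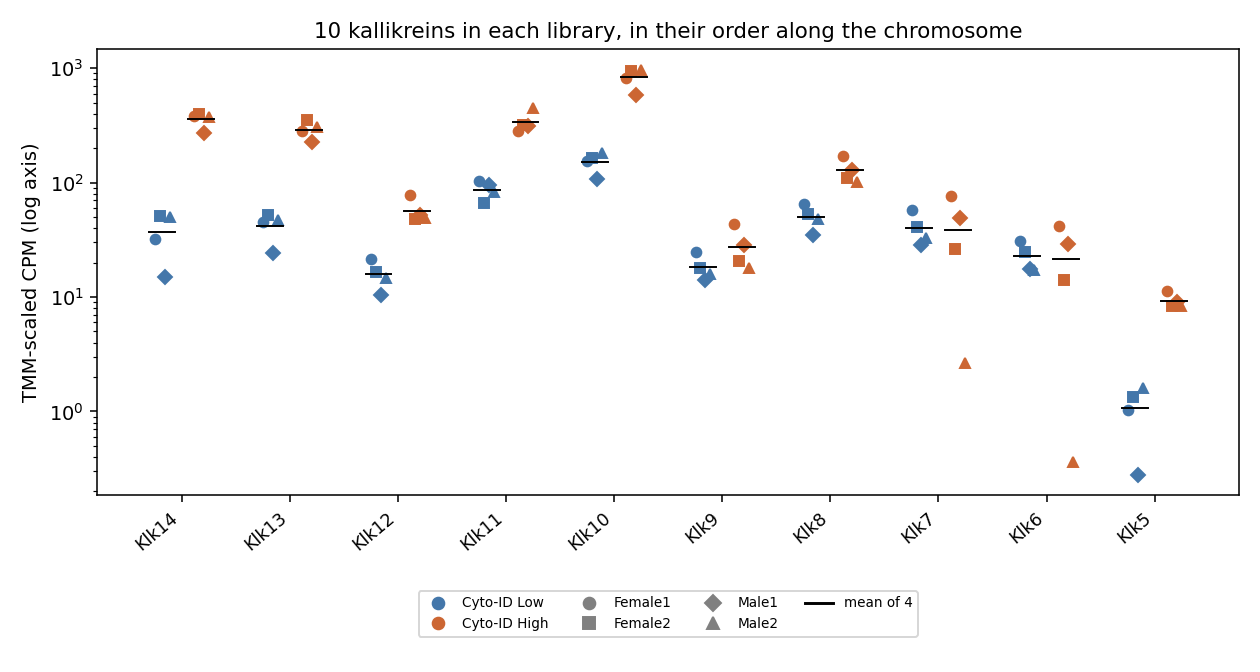
Level of 10 kallikreins in each library (TMM-scaled CPM, log axis), in their order along chromosome 7, with the Low libraries in blue, the High libraries in orange, a symbol per animal and a bar at the mean of 4. The High libraries stand above the Low libraries for Klk14 to Klk10, Klk8 and Klk5, while Klk6 and Klk7 reach 0.360 and 2.68 CPM in the High library of Male2.

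Klk6, Klk7 and Klk9 did not pass the test, and for Klk6 and Klk7 the High libraries lay far apart from each other. Klk7, the chymotrypsin-like kallikrein that cleaves corneodesmosomes in the skin, had 57.9, 41.05, 28.2 and 32.96 CPM in the Low libraries and 76.1, 26.1, 49.1 and 2.67 CPM in the High libraries. It was above the Low library of the same animal in Female1 and Male1 and below it in Female2 and Male2, with log2 differences of 0.39, −0.65, 0.80 and −3.59. The fitted change was −0.09 (SE 0.64, 95% interval −1.52 to 1.34, adjusted p = 0.925). Klk6, its neighbour, showed the same pattern with 31.1, 24.9, 17.7 and 17.3 CPM in Low and 42.1, 14.2, 28.8 and 0.360 CPM in High. The counts of Klk6 in High were 1090, 326, 756 and 7, and its fitted change was −0.12 (SE 0.76, 95% interval −1.82 to 1.58, adjusted p = 0.918). Among the High libraries the highest level was 117 times the lowest for Klk6 and 28.4 times for Klk7, against 1.67 times for Klk10. Without the High library of Male2 the fitted changes of Klk6 and Klk7 were 0.30 and 0.31, with adjusted p = 0.495 and 0.483.

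Klk9 lay between both patterns. It had 24.6, 18.01, 14.2 and 16.0 CPM in Low and 43.2, 20.6, 28.5 and 17.8 CPM in High and was higher in High in all 4 animals, with log2 differences of 0.81, 0.19, 1.00 and 0.15. This direction depends on the TMM factors in Female2 and Male2: Klk9 had 795, 655, 457 and 530 counts in Low and 1120, 472, 747 and 345 counts in High, and with uncorrected library sizes it was lower in High in these 2 animals and the fitted change was 0.09. The fitted change of 0.60 (SE 0.25, 95% interval 0.05 to 1.15) missed the threshold with an adjusted p of 0.0701. With the animal as a replicate block, which compares the fractions within each animal, it passed (0.54, adjusted p = 0.0278). Over all alternatives its adjusted p ran from 0.0176 to 0.820.

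The summed markers of 5 other cell types (fibroblasts, leukocytes, endothelium, muscle and mast cells) were highest in Female1 in the High fraction, then in Male1, Female2 and Male2. Klk5, Klk6, Klk7, Klk8 and Klk9 had the same order in High, as did Prss12, Prss22, Prss23 and Tmprss12. For Klk5, Female2 and Male2 were nearly level at 8.40 and 8.39 CPM (193 and 163 counts). Traits of the whole High libraries had this order too. Genes with a count numbered 27395, 24820, 26623 and 22208, and the TMM factors were 0.944, 0.792, 0.896 and 0.679. The share of all genes with this order was not determined. The summed level of 10 fibroblast markers was 489, 167, 354 and 58.2 CPM in High and 522, 413, 392 and 566 CPM in Low. For 8 endothelial markers the sums were 42.1, 13.4, 26.4 and 3.55 CPM in High and 33.8, 25.2, 18.1 and 28.9 CPM in Low. The sums of the 12 leukocyte markers in High were 104, 37.5, 76.2 and 10.4 CPM, those of the 10 muscle markers 63.9, 22.6, 42.2 and 2.93 CPM and those of the 8 mast cell markers 17.4, 6.09, 11.6 and 1.18 CPM. Between the fractions, 2 of 10 fibroblast markers were lower and 1 of 10 tested leukocyte markers was higher, and the other tested markers of these 5 types did not pass. The order holds for the sums and not for each marker: the 3 that passed, Dcn, Fbln1 and Cd52, were higher in High Male2 than in High Female2. The summed gastric markers did not have it either, with Female2 highest. In the High library of Male2, 2 leukocyte markers (Cd3e, Cd3g), 3 mast cell markers (Kit, Ms4a2, Fcer1a), 3 muscle markers (Myh2, Myh4, Actg2) and 1 endothelial marker (Kdr) were at 0 counts, and no fibroblast marker was. The part of these cells, or of the traits of the whole libraries, in the levels of these 9 genes was not tested. Klk10, Klk11, Klk12, Klk13 and Klk14 did not have that order, and Klk10 was highest in the High library of Male2.

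**Figure D3:**
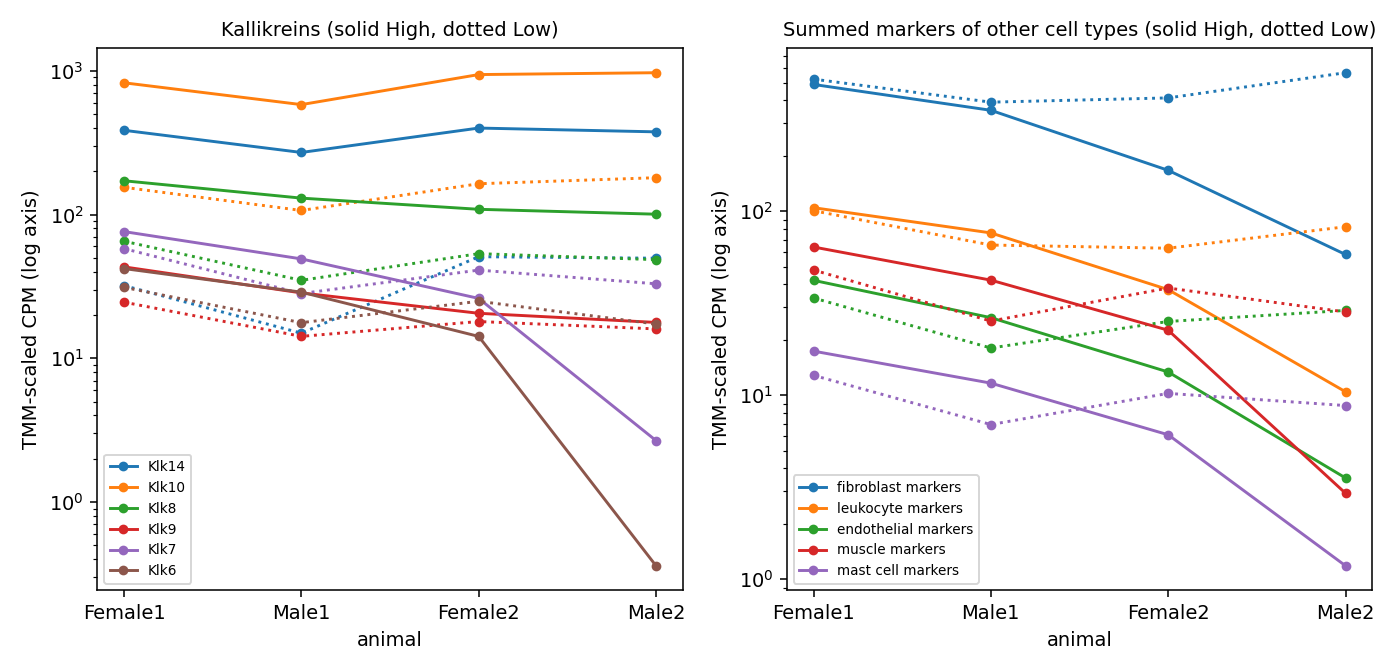
Level of 6 kallikreins (left) and summed level of markers of 5 other cell types (right) in each animal (TMM-scaled CPM, log axes), solid for Cyto-ID High and dotted for Cyto-ID Low, with animals placed by their fibroblast sum in High and lines joining values of 1 gene or list only. In High, Klk6 and Klk7 and all 5 marker sums are highest in Female1 and lowest in Male2, while Klk10 and Klk14 stay within 582 to 969 and 270.2 to 399 CPM.

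The makeup of the kallikrein counts within a library was described too, where the share of a gene also falls when the others rise. Klk9 made up 3.905% ± 0.562 of kallikrein counts in Low and 1.34% ± 0.580 in High (SD, n = 4 each), and Klk8, which rose, 10.8% ± 1.03 and 6.199% ± 1.81. Klk7 made up 8.51% ± 1.69 in Low and 1.92% ± 1.55 in High, and Klk10 32.5% ± 3.43 and 39.2% ± 3.87. These shares show unequal change among the kallikreins, not a fall of any of them. The counts of Klk14 divided by those of Klk7 were 0.553, 1.24, 0.530 and 1.51 in Low and 5.07, 15.3, 5.501 and 140.5 in High. The ratio of Klk7 to Klk6 stayed between 1.60 and 1.91 in 7 libraries and was 7.43 in the High library of Male2, where Klk6 had 7 counts.

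The 250 bases before the start sites of Klk14 and Klk7 are shown because these genes of 1 cluster differ: Klk14 rose and Klk7 did not pass. They were taken from RefSeq (GRCm38.p6), both lie on the plus strand, and neither holds 1 of the 3 motifs searched, which are given with the Tmprss11 genes, so no base is in capitals. The stretch of Klk14 is chr7:43690168-43690417 and that of Klk7 is chr7:43811044-43811293.
Klk14: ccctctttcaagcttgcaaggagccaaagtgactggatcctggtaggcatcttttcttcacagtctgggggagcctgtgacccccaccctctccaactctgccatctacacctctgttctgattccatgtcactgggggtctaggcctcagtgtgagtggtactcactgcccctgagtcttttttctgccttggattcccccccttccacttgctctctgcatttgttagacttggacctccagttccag
Klk7: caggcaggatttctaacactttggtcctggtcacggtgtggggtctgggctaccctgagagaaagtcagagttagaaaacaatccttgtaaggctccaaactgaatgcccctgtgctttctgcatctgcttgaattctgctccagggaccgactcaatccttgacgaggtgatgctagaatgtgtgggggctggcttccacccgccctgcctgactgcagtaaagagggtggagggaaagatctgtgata

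A second cluster holds the Tmprss11 genes, type II transmembrane serine proteases of squamous and airway epithelium. In GENCODE M21 (GRCm38) they lie on the reverse strand of chromosome 5, between 86231481 (Tmprss11c) and 86745815 (Tmprss11e). All 6 that were tested rose, and Tmprss11c had 2 counts in all. Tmprss11d, the airway trypsin-like protease, had the largest fitted change of these, from 12.8, 15.3, 5.65 and 15.6 CPM in Low to 102, 172, 92.6 and 117 CPM in High. This was a change of 3.29 (SE 0.31, adjusted p = 3.19e-05), or 9.81-fold. The fractions were far apart in every animal, with log2 differences of 3.00, 3.48, 4.02 and 2.90.

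Tmprss11f, whose loss in mice is known to impair the epidermal barrier, rose by 2.76 (SE 0.25, adjusted p = 2.54e-05), from 7.63, 3.49, 3.45 and 5.25 CPM to 38.01, 41.9, 28.6 and 26.8 CPM. Tmprss11a followed with 39.6, 56.2, 31.9 and 52.5 CPM in Low and 197, 311, 221 and 212 CPM in High, a change of 2.38 (SE 0.22, adjusted p = 3.01e-05). Both genes separated the fractions without overlap. Tmprss11b and Tmprss11g rose by 1.77 (SE 0.27, adjusted p = 4.69e-04) and 1.87 (SE 0.23, adjusted p = 1.39e-04). Tmprss11b was at 116, 44.7, 65.6 and 59.3 CPM in Low and 223, 289.6, 249 and 208 CPM in High. Female2 was its lowest Low library and its highest High library. Tmprss11g had 17.7, 13.8, 11.2 and 15.1 CPM in Low and 43.3, 87.98, 40.8 and 43.6 CPM in High, with Female2 far above the other animals in High. The 11 gastric markers in the table also stood apart in that library, at a summed 115.8 CPM where the other High libraries had 0.801 to 1.44 CPM. The Low library of Female2 had 19.1 CPM of them, against 0.392 to 0.772 CPM in the other Low libraries, while its Tmprss11g level lay among those of the other animals. Among the High libraries each tested Tmprss11 gene was highest in Female2, Tmprss11e only just (65.1 CPM against 64.6 CPM in Female1). Whether gastric cells contribute to Tmprss11g or to the other Tmprss11 genes was not tested. Without the High library of Female2 Tmprss11g was higher by 1.59 (adjusted p = 2.73e-04).

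Tmprss11e had the smallest fitted change, a rise of 1.36 (SE 0.31, adjusted p = 0.00466). It had 39.01, 11.9, 21.5 and 18.4 CPM in Low and 64.6, 65.1, 59.8 and 42.7 CPM in High, so the lowest High library, Male2, lay just above the highest Low library, Female1. With uncorrected library sizes it no longer passed (0.82, adjusted p = 0.0541).

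The stretches before the start sites of Tmprss11d and Tmprss11f are shown because both genes rose and both match a loose AP-1 pattern close to the start, in capitals. The pattern was TGANTCA, where N may be any base, and as a pattern it reads the same on both strands. The base at N is T in Tmprss11d and G in Tmprss11f, and a narrower AP-1 site was not searched. The match begins 39 bases before the start site in Tmprss11d (chr5:86373388-86373637, minus strand, RefSeq GRCm38.p6) and 48 bases before it in Tmprss11f (chr5:86632425-86632674, minus strand).
Tmprss11d: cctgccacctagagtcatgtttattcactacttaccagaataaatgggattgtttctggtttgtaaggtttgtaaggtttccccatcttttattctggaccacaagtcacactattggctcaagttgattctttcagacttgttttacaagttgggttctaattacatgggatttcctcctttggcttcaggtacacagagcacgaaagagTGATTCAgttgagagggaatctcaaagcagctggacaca
Tmprss11f: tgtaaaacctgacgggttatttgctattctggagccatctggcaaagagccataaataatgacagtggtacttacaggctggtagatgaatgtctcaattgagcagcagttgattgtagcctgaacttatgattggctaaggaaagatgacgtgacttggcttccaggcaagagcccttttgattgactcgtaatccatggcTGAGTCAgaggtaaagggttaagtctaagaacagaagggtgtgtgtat

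Promoter sequences were found for 72 of the 89 genes, in 85 windows of 250 bases. The loose AP-1 pattern had a match in those of 7 genes (Capn2, Prss23, Prss36, Prss42, Tmprss11d, Tmprss11f and Tmprss5), and 6.75% of 32851 RefSeq promoter windows of the same length hold it. Of these genes Prss36, Tmprss11d and Tmprss11f rose, Prss23 fell, Capn2 did not pass, and Prss42 and Tmprss5 were not tested. Some genes have several windows, so a count of genes and a percent of windows are unlike units. A TATA box (TATAAA, either strand) was found for 7 genes (Furin, Klk15, Prss1, Prss2, Prss3, Prss28 and Prss29) and in 12.4% of all windows. The palindrome AACCGGTT, bound by Grainyhead-like factors, was found for 0 of the 72 genes and in 0.116% of all windows. A match of letters is a description of the sequence and does not show that a factor binds there.

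Of the other transmembrane proteases, Tmprss4 and Tmprss13 rose and Tmprss2 fell. Tmprss4, which can activate the epithelial sodium channel, had 17.2, 29.9, 13.3 and 36.2 CPM in Low and 136, 193, 163 and 243 CPM in High, a change of 2.92 (SE 0.34, adjusted p = 8.82e-05). Tmprss13, a protease that supports the barrier of the epidermis, had 70.4, 65.2, 64.5 and 61.2 CPM in Low and 217, 239, 218 and 296 CPM in High, a change of 1.89 (SE 0.16, adjusted p = 1.83e-05). Its Low libraries spread only 1.15-fold from lowest to highest. Tmprss2, known as an activator of viral envelope proteins on airway cells, went the other way, from 26.4, 28.4, 33.8 and 34.02 CPM in Low to 4.94, 6.97, 5.83 and 11.2 CPM in High. It fell by 2.10 on the log2 scale (SE 0.22, adjusted p = 4.64e-05) or 4.29-fold, with differences of −2.40, −2.02, −2.52 and −1.59 in the animals. Tmprss12, known from the testis, had at most 29 counts and did not pass (−0.09, SE 0.67).

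The genes of matriptase and prostasin both rose, and the difference between their changes was not tested. St14 (matriptase, chr9:31089402-31131853 on the reverse strand, GRCm38) had 193, 78.3, 129.7 and 109.6 CPM in Low and 292, 198, 259 and 337 CPM in High, a change of 1.08 (SE 0.28, adjusted p = 0.00993). Its lowest High library, Female2, at 198 CPM, stood only slightly above its highest Low library, Female1, at 193 CPM. With uncorrected library sizes St14 was higher by 0.53 and did not pass (adjusted p = 0.125). Prss8 (prostasin, chr7:127925716-127930104, reverse strand) had 11.9, 12.1, 7.95 and 12.7 CPM in Low and 36.5, 34.6, 32.2 and 48.1 CPM in High, a change of 1.76 (SE 0.20, adjusted p = 7.82e-05). Exons of Kat8 overlap it on the other strand.

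**Figure D4:**
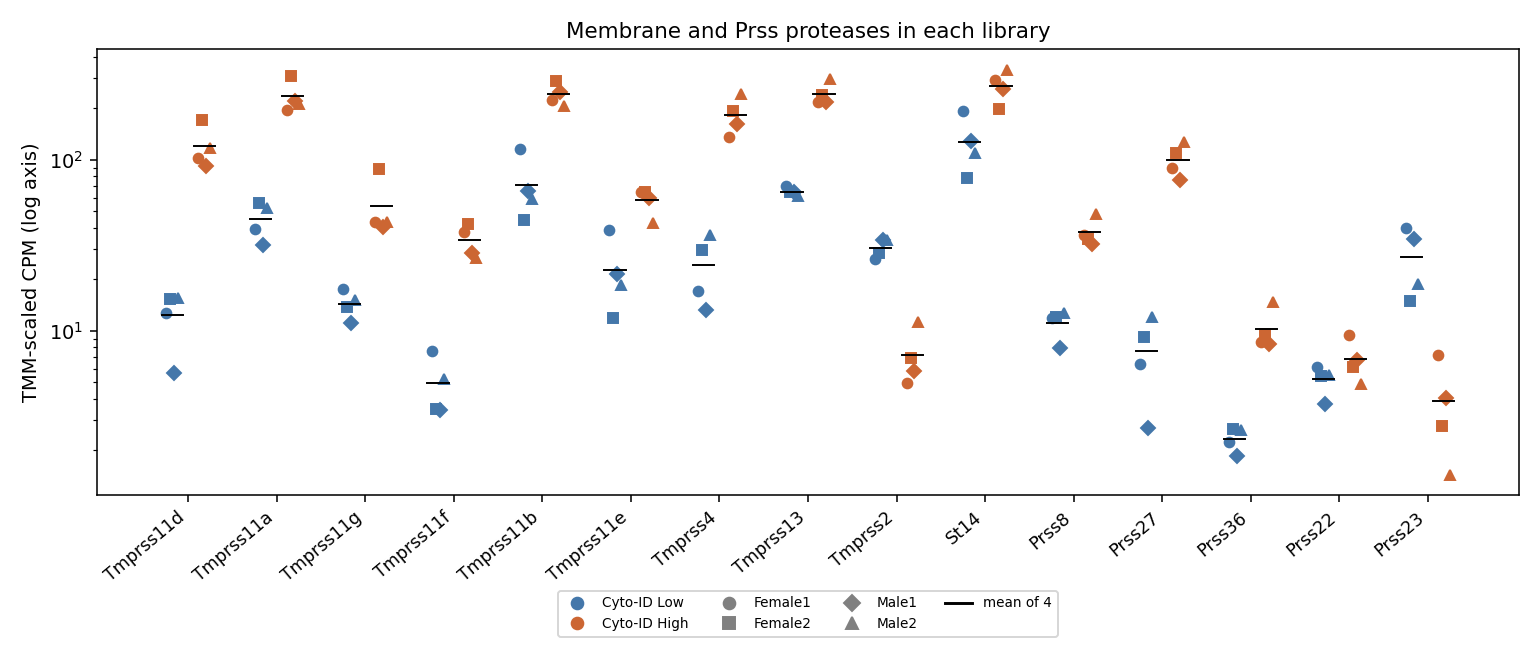
Level of 15 transmembrane and Prss protease genes in each library (TMM-scaled CPM, log axis), the Tmprss11 genes first and in their order along chromosome 5, with Low in blue, High in orange, a symbol per animal and a bar at the mean of 4. Tmprss2 and Prss23 are the genes whose High libraries all lie below their Low libraries, and Prss22 overlaps.

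Among the Prss genes, Prss27 had the largest fitted change. Prss27 encodes marapsin, a serine protease known from stratified squamous epithelia. It had 6.39, 9.24, 2.703 and 12.01 CPM in Low and 89.1, 109, 75.8 and 127 CPM in High, a change of 3.72 (SE 0.41, adjusted p = 7.11e-05) or 13.2-fold. Prss36 (polyserase-2), which lies next to Prss8 on chromosome 7, had 2.22, 2.67, 1.86 and 2.63 CPM in Low and 8.61, 9.62, 8.35 and 14.7 CPM in High, a rise of 2.12 (SE 0.24, adjusted p = 8.27e-05). Prss22 (tryptase epsilon) had 6.15, 5.47, 3.73 and 5.52 CPM in Low and 9.49, 6.14, 6.79 and 4.89 CPM in High, and its change of 0.38 (SE 0.22, 95% interval −0.11 to 0.87, adjusted p = 0.181) did not pass.

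Prss23, a secreted serine protease, fell. It had 39.9, 14.9, 34.3 and 18.7 CPM in Low and 7.25, 2.79, 4.04 and 1.44 CPM in High, a change of −2.83 (SE 0.47, adjusted p = 8.03e-04). Its log2 differences were −2.45, −2.39, −3.06 and −3.63. The order of animals in High was that of the summed fibroblast markers, whose part in this decrease was not tested. Its antisense partner Prss23os, too low to be tested, had 56, 10, 58 and 8 counts in Low and 3, 0, 2 and 0 counts in High. As the exons of both overlap, their reads cannot be told apart if the counting did not use the strand. Prss12, Prss16, Prss35 and Prss41 had means of 0.424 to 2.46 CPM and did not pass, with log2 fold changes of −0.23 to 0.66.

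The intracellular proteases linked to cornification were among the genes with the largest fitted changes. Asprv1, the retroviral-like aspartic protease of the skin (chr6:86628164-86629710, forward strand, GRCm38), had 177, 219, 70.8 and 272 CPM in Low and 2248, 2107, 1717 and 2302 CPM in High. The change was 3.50 (SE 0.38, adjusted p = 6.46e-05), or 11.3-fold. Casp14 (chr10:78711991-78718294, reverse strand), the caspase of keratinizing cells, had 14.7, 20.6, 9.63 and 27.9 CPM in Low and 147, 230.0, 154 and 228 CPM in High, a change of 3.38 (SE 0.34, adjusted p = 4.12e-05). Every High library lay above every Low library for both genes. Among the Low libraries both were lowest in Male1 and highest in Male2, as were Prss8, Prss27, Klk5, Klk10, Tmprss4, Tmprss11d and the summed suprabasal markers, which stood at 14530, 20750, 10470 and 27890 CPM in Low and 143000, 188800, 146000 and 246400 CPM in High. The part of these markers' cells in the levels was not tested.

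The calpain pair split. Capn1 (chr19:5988545-6015897, reverse strand) had 173, 238, 191 and 252 CPM in Low and 541, 721, 621 and 969 CPM in High, a change of 1.73 (SE 0.22, adjusted p = 1.39e-04). Capn2 (chr1:182467260-182517608, reverse strand) had 200.5, 126, 159.8 and 151 CPM in Low and 123, 144, 124 and 179.5 CPM in High, with a change of −0.16 (SE 0.19, 95% interval −0.59 to 0.27, adjusted p = 0.527). Capn2 was lower in High in Female1 and Male1 and higher in Female2 and Male2. With uncorrected library sizes it was called lower (−0.74, adjusted p = 0.00189). Without scaling, the ratio of Capn1 to Capn2 counts was 0.863, 1.89, 1.197 and 1.67 in Low and 4.402, 5.01, 5.02 and 5.396 in High, with no overlap.

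Furin (chr7:80388585-80405436, reverse strand) was the only one of these 6 genes to fall. It had 127, 90.1, 136 and 136 CPM in Low and 76.02, 62.8, 68.5 and 104 CPM in High, a change of −0.65 (SE 0.18, adjusted p = 0.0124). Furin was lower in High in each animal, but the High library of Male2 lay above the Low library of Female2, so the fractions overlapped. Exons of Capn1, Capn2 and Furin each overlap those of a gene on the other strand (Gm10814, Gm37885 and Gm44851), as do those of Tmprss13 and Tmprss4 (1700003G13Rik and Gm17099).

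**Figure D5:**
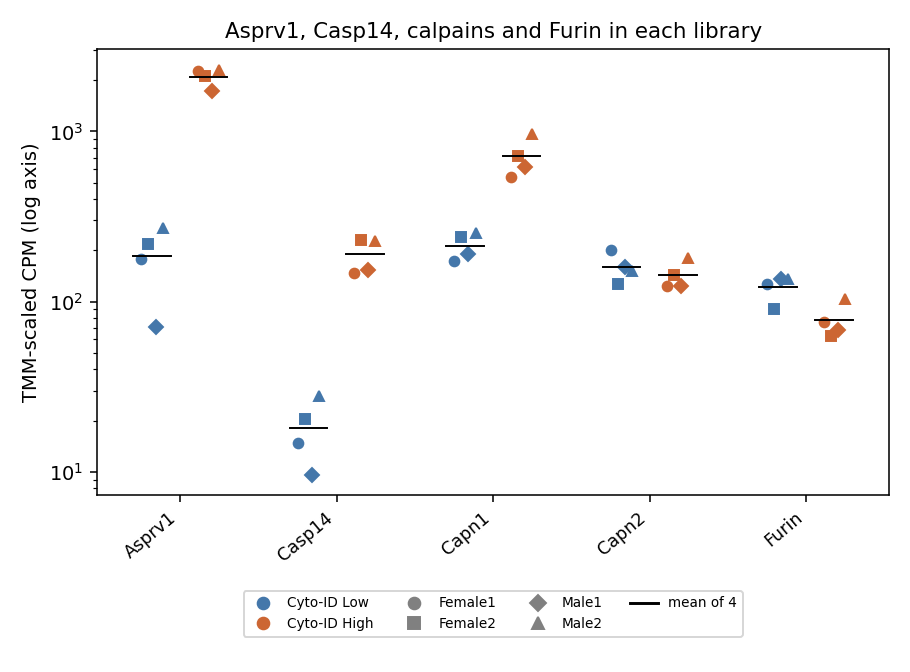
Level of Asprv1, Casp14, Capn1, Capn2 and Furin in each library (TMM-scaled CPM, log axis), with Low in blue, High in orange, a symbol per animal and a bar at the mean of 4. Asprv1, Casp14 and Capn1 separate the fractions, while Capn2 and Furin overlap.

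To compare levels between genes, CPM were divided by the length of the merged exons in kilobases. In High, Asprv1 had the highest level of the 89 genes at 1353 ± 171 CPM per kilobase (SD, n = 4), followed by Klk10 at 604 ± 129, Klk14 at 281 ± 46.5, Klk11 at 232 ± 52.1 and Capn1 at 213 ± 55.5. The levels of Klk14, Klk11 and Capn1 lay within their spreads of each other. In Low the order was Asprv1 at 119.5 ± 55.2, Klk10 at 110.2 ± 22.99, Capn1 at 63.9 ± 11.2 and Klk11 at 59.2 ± 10.99 CPM per kilobase, where Asprv1 and Klk10 did not differ beyond their spread, nor did Capn1 and Klk11. Klk14 had 29.01 ± 13.3 CPM per kilobase in Low, below Klk8 at 32.8 ± 8.15, with which it overlapped.

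The remaining 54 of the 89 genes did not pass the filter on low counts, 24 of them with no count in any library. Of the glandular kallikrein genes, whose copies are nearly identical to each other, Klk1 had at most 11 counts in a library, Klk1b27 at most 7, Klk1b1 at most 6 and Klk1b24 at most 1, and the other Klk1b genes had none. The pancreatic trypsinogen genes Prss1 and Prss2 had 1 and 3 counts in all, and Prss3 had none. Markers of salivary and pancreatic acinar cells summed to 0.412 to 0.543 CPM in Low and 0.0871 to 0.656 CPM in High. The kallikreins Klk4 and Klk15 had at most 4 and 1 counts in a library. Among the Tmprss genes, Tmprss5, Tmprss6, Tmprss7, Tmprss9 and Tmprss11c had at most 1 to 8 counts, and Tmprss3 and Tmprss15 had none. Prss30, Prss32, Prss33, Prss34, Prss38, Prss40, Prss43, Prss45, Prss46, Prss50, Prss51, Prss55, Prss56 and Prss57 had at most 1 to 4 counts, and Prss48 and Prss53 at most 15. Prss21, Prss28, Prss29, Prss37, Prss39, Prss42, Prss44, Prss47, Prss52, Prss54 and Prss58 had no count.

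Other genes of the same pathways were examined from lists of partners, substrates and relatives, which were chosen with earlier results of these data known. Of the 18 partners and inhibitors of the matriptase and prostasin cascade 14 were tested, of which 8 were higher and 4 lower, beside 23.4% and 25.3% of all tested genes, with a median log2 fold change of 0.57 (−0.09 over all genes, and 0.0035 for the list with uncorrected library sizes). The kallikrein inhibitor Spink5 had 174 ± 70.5 CPM in Low and 1723 ± 142 in High (SD, n = 4 each), a rise of 3.31 (SE 0.33, adjusted p = 4.00e-05). Spink5 is also among the suprabasal markers used above to describe the fractions. Spint1, an inhibitor of matriptase, rose by 2.84 (SE 0.24, adjusted p = 2.11e-05). Scnn1a, the alpha subunit of the epithelial sodium channel, rose by 3.25 (SE 0.30, adjusted p = 2.74e-05). Met, the receptor of hepatocyte growth factor, fell (−2.00, SE 0.28, adjusted p = 2.74e-04). The other 3 that were lower were Hpn, Epcam and F2rl1, named here after their values were seen.

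The list of kallikrein and desquamation substrates, which holds desmosomal and cornified proteins and the antimicrobial peptides Camp and Defb1, had 13 of 15 tested genes higher and the other two did not pass (Dsc3 and Flg2, named after their values were seen), with a median of 1.92 (1.33 with uncorrected library sizes), beside 23.4% higher and 25.3% lower among all tested genes. The largest changes were in Dsc1 (4.35, SE 0.69, adjusted p = 6.24e-04), Dsg1c (4.21, SE 0.37, adjusted p = 2.31e-05), Dsg1a (4.20, SE 0.59, adjusted p = 3.03e-04) and Lor (4.12, SE 0.64, adjusted p = 5.28e-04), which encode desmosomal cadherins and, for Lor, the cornified envelope protein loricrin. Dsg1a, Dsg1b and Dsg1c are close copies, so their counts may have been split.

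Of the proprotein convertases related to furin, 2 of 7 tested genes were higher and 3 lower, beside 23.4% and 25.3% of all tested genes, with a median of −0.98 (−1.52 with uncorrected library sizes, and −0.30 without the Low library of Female1). Pcsk6 had 26.6 ± 11.4 CPM in Low and 258 ± 51.1 CPM in High (SD, n = 4 each), a rise of 3.27 (SE 0.31, adjusted p = 3.18e-05). Pcsk5 changed by −3.47 (SE 0.21, adjusted p = 1.27e-05) and the site-1 protease gene Mbtps1 by −1.18 (SE 0.12, adjusted p = 5.33e-05). Pcsk7 rose by 0.41 (SE 0.14, adjusted p = 0.0364), a change smaller than the −0.56 by which uncorrected library sizes move the median of all genes. The third gene that was lower was Pcsk4, named after its value was seen.

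In the calpain system 8 of 9 tested genes were higher and 1 lower, beside 23.4% and 25.3% of all tested genes, with a median of 1.30 (0.72 with uncorrected library sizes). Capns2, a small regulatory subunit, rose by 2.07 (SE 0.27, adjusted p = 1.77e-04), and Capn5, Capn10 and Capn15 rose by 1.42, 1.30 and 0.99 (SE 0.23, 0.16 and 0.12). The 1 gene that fell was Capns1, the common small subunit of both calpains above, named here after its value was seen, at −0.61 (SE 0.17, adjusted p = 0.0143). Among other caspases, Casp6 had 23.7 ± 3.99 CPM in Low and 4.103 ± 1.39 CPM in High (SD, n = 4 each) and fell (−2.54, SE 0.24, adjusted p = 3.28e-05). Casp4 changed by −0.88 (SE 0.30, adjusted p = 0.0341) and Casp12 was also lower. Casp1 rose (0.61, SE 0.17, adjusted p = 0.0134), and both Casp1 and Casp12 were named after their values were seen.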

How the data were processed

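The values are whole-number read counts for each gene symbol in 8 libraries, as the authors deposited them, with no normalization. Per the submitters' processing notes, STAR 2.7.3, DESeq2 and the build GRCm38 were used; the counting tool, strand setting and filters are not given in the sources used here. The animals are biological replicates. The main fit had no term for the animal, so its p-values measure the spread between libraries within sex and fraction and leave out the pairing. Both libraries of an animal share its name in the titles and were treated as pairs in the blocked fit. Deviations from the fraction means correlated across genes within animals by 0.43 (Female1), 0.32 (Female2), −0.02 (Male1) and 0.28 (Male2), and between animals by −0.37 to 0.35. Genes were kept with filterByExpr, given TMM factors and tested in R 4.3.3 with edgeR 4.0.16 (glmQLFit, glmQLFTest; sex as covariate; two-sided), with Benjamini-Hochberg adjustment over 17344 genes and a threshold of 0.05. A prior count of 2 was added for differences between libraries on the log2 CPM scale. SE is the log2 fold change divided by the root of the F statistic. The alternatives were RLE factors, total counts, no filter, at least 10 counts in every library, DESeq2 1.42.0, limma-voom (limma 3.58.1), no covariate, the animal block, and left-out libraries or animals. The fit was tested on simulated data first. Positions and exon lengths come from GENCODE M21, which held all 89 symbols, and promoters from RefSeq. Genes and lists were chosen with earlier results of these data known. Named with values in full were members with a mean of at least 5 CPM and 7 fixed genes, and of each linked list up to 4 genes with the largest called change at a mean of at least 5 CPM. Some genes of the linked list of caspases are not reported here.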

Additional observations from a re-analysis of the deposited data

Results flagged for a closer look

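Among the levels of the 35 tested genes, each fraction was searched for a library far from the other 3 (Dixon's test at the 95% level). This was found in 3 of 70 groups, and chance alone gives about 1 in 20. Tmprss11g stood at 87.98 CPM in Cyto-ID High Female2, where the other High libraries had 40.8, 43.3 and 43.6 CPM. Klk12 stood at 77.45 CPM in Cyto-ID High Female1, against 47.6, 49.1 and 52.2 CPM. Prss12 (neurotrypsin) stood at 1.822 CPM in Cyto-ID Low Female1, against 0.770, 0.870 and 0.906 CPM, on 59 counts.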

How the results depend on the processing

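Of 18 alternatives, those with 1 library left out called 22 to 23 of the tested protease genes higher and 3 to 4 lower (7269 to 8106 genes of the whole table in either direction). The other settings gave 20 to 24 higher and 3 to 4 lower, with total counts lowest. The animal as a replicate block, a paired comparison, gave 23 and 3, and changed no other protease call than that of Klk9. Without both Female2 libraries the counts were 23 and 3, and without both Male2 libraries 22 and 3. Direction and call were kept by 25 of the 35 genes wherever they could be tested. Called changes that were lost are those of St14 and Tmprss11e under total counts, where Capn2 was called lower. Klk9 passed with no filter (0.56, adjusted p = 0.0176), in DESeq2 (0.68, adjusted p = 0.0300), without both Female2 libraries (0.72), and without High Female2 (0.78) or High Male2 (0.72).

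Signs of uncalled changes reversed in 6 genes. Under total counts Prss22 stood at −0.145 and Prss35 at −0.00652, and with no covariate Tmprss12 at 0.0121. Without both Female2 libraries Klk6 stood at 0.0463 and Klk7 at 0.0381. Without both Male2 libraries Klk6, Klk7, Prss12 and Tmprss12 stood at 0.288, 0.345, 0.138 and 0.567. With 1 library left out, Klk6 ranged from −1.20 to 0.298, Klk7 from −0.996 to 0.305, Prss12 from −0.789 to 0.137 and Tmprss12 from −0.530 to 0.325, each highest without High Male2. The medians of the 5 lists of linked genes kept their sign, and each moved beyond its spread over animals in at least 1 alternative. The cause of these changes was not tested. Few counts limit Klk5 in Low and the genes under 5 CPM.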
